A study of Rattus norvegicus with 16 samples.

Results

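Liver RNA was examined for 37 genes of coagulation and fibrinolysis, namely the clotting factors, the fibrinogen chains, the natural anticoagulants, the plasminogen system with its inhibitors, and the protease-activated receptors. They were chosen by gene symbol and function and not by their values, although results of the same libraries were known when the list was written. Of the 37 symbols, 36 were among the 17055 gene symbols that had been counted, and Proz (protein Z) was absent from them. Enough reads for a test were found for 33 members in each comparison of sepsis with control.

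The livers came from 48 male Sprague-Dawley rats aged 10 weeks, 12 in each of 4 groups. Isoflurane rats were induced and kept under isoflurane, and propofol rats were induced with ketamine and xylazine and kept under propofol. In the sepsis groups the cecum was ligated and punctured, whereas in control rats the abdomen was opened and the cecum was only lifted out and returned. Livers were taken 8 h after the celiotomy, with all rats anesthetized and ventilated until then. Each library was made from the pooled livers of 3 rats. The Isoflurane-Sepsis libraries carry the numbers 1 to 4 and their isoflurane control libraries 5 to 8, the Propofol-Sepsis libraries 9 to 12 and their propofol control libraries 13 to 16. The p-values below therefore measure the spread between pools of rats, and not between single rats. The control rats were themselves operated on and anesthetized, so no untreated liver is part of the comparison.

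Between 14199422 and 49937173 reads of a library lay on genes. Levels are given as CPM, the reads of a gene scaled to the library size, after edgeR's TMM scaling over all 16 libraries, with the SD over the 4 libraries of a group. They serve to compare 1 gene between libraries, not different genes, because transcript lengths were not used. A gene was called when the adjusted p of edgeR's quasi-likelihood test, corrected over all genes tested, was below 0.05. All 7 hepatocyte markers were detected in every group, with a summed level between 75793 and 127677 CPM. The sum was lower after sepsis than in control, without overlap under isoflurane (96614 to 108052 against 118032 to 127677 CPM) and with overlap under propofol. Most of it was Alb, which gave 75523 of 103512 CPM in library 1. Of the 7 single markers, 3 were called lower, 0 higher and 4 were not called under each anesthetic. Propofol-Sepsis library 10 stood apart. A list of 9 genes of neurons and myelin, written after the data were seen (Mbp, Mobp, Snap25, Syp, Slc17a7, Calb2, Neurod1, Gabra6 and Cbln1), summed to 261 CPM in it, whereas the other 15 libraries lay between 2.08 and 17.1 CPM. Members whose call changed without library 10 are given with and without it.

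Coagulation is a cascade of proteases that ends with thrombin cutting fibrinogen to fibrin. It starts either on tissue factor or through the contact factors, is held back by antithrombin, heparin cofactor II, the protein C system and tissue factor pathway inhibitors, and is undone by plasmin. Hepatocytes make most of the soluble factors, whereas thrombomodulin, the endothelial protein C receptor and the plasminogen activators are made largely by endothelial and other non-parenchymal cells. Fibrinogen is a classical acute phase protein, whose genes respond to interleukin 6.

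The promoters of the fibrinogen chains are shown because the 3 genes moved together. Each run is the 250 bases before the annotated start, 5′ to 3′ on the gene's strand, from RefSeq on GRCr8 (chr2:170671919-170672168, plus strand, for Fga; chr2:170700876-170701125, minus strand, for Fgb; chr2:170652833-170653082, plus strand, for Fgg). Capitals mark CTGGGAA, the letters known from interleukin 6 response elements, and TTNNGCAA, a form of the C/EBP motif.
Fga: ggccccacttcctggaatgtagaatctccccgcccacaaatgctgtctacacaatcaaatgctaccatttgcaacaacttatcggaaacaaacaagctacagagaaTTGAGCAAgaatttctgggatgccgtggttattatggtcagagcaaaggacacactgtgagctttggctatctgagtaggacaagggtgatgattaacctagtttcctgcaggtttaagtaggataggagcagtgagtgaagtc
Fgb: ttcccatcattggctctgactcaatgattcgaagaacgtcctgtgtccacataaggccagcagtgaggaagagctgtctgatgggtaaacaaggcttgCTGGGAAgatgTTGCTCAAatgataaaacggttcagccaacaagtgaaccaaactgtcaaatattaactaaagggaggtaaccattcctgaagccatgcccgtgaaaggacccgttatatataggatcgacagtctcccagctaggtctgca
Fgg: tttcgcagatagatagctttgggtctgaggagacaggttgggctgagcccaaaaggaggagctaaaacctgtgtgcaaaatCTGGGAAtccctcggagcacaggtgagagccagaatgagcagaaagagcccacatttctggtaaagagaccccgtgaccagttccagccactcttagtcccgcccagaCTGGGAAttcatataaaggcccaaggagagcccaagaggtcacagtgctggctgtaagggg
CTGGGAA was found once in the window of Fgb, 152 bases before the start, and at 2 places in that of Fgg, 169 and 61 bases before it. Fga held no match to it. TTNNGCAA was found in Fga and Fgb, 144 and 141 bases before the start, but not in Fgg.

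Both strands were searched in all 27457 windows of the table, of which 28 belonged to members. CTGGGAA was in 7 member windows (Kng1, F9, Fgb, Fgg, Serpinc1, Tfpi2 and Plg) and in 9.33% of all windows. TTNNGCAA was in 9 member windows and in 9.20% of all. A STAT motif, TTCNNNGAA, which can share letters with CTGGGAA, was in 4 member windows (F9, Fga, Fgb and Pros1) and in 7.52% of all. A form of the motif of the hepatocyte factor HNF1 was in those of F13b and Plg and in 0.331% of all windows, and one of NF-kB in that of F10 and in 1.28% of all. These matches describe letters and not bound sites.

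Under isoflurane, 11 of the 33 tested members were higher and 9 lower after sepsis. That is 20 of 33, where 50.0% of the 10361 genes tested were called (25.7% higher and 24.4% lower). Under propofol, 9 were higher and 10 lower, 19 of 33, where 42.1% of 10348 genes were called (20.4% higher and 21.7% lower). The direction was shared by 17 members. Fga, Fgb, Fgg, Procr, Thbd, Tfpi2, Plaur, Cpb2 and F2rl2 were called higher under both anesthetics, and Klkb1, F11, F3, F13b, Serpinc1, Serpind1, Serpina5 and Plg were called lower under both. Proc and Plau passed the test under propofol, and Tfpi, Plat and Vwf under isoflurane, but of these 5 the difference between the anesthetics was itself called for Plau alone. The median log2 fold change of the members was 0.07 under isoflurane and -0.07 under propofol, beside 0.01 and -0.00 over all genes tested. Sepsis and control libraries did not overlap for 18 members under isoflurane (48.7% of all genes) and for 21 under propofol (42.2%). All libraries are of whole liver, so fewer cells of a type and less RNA per cell cannot be told apart.

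**Figure D1:**
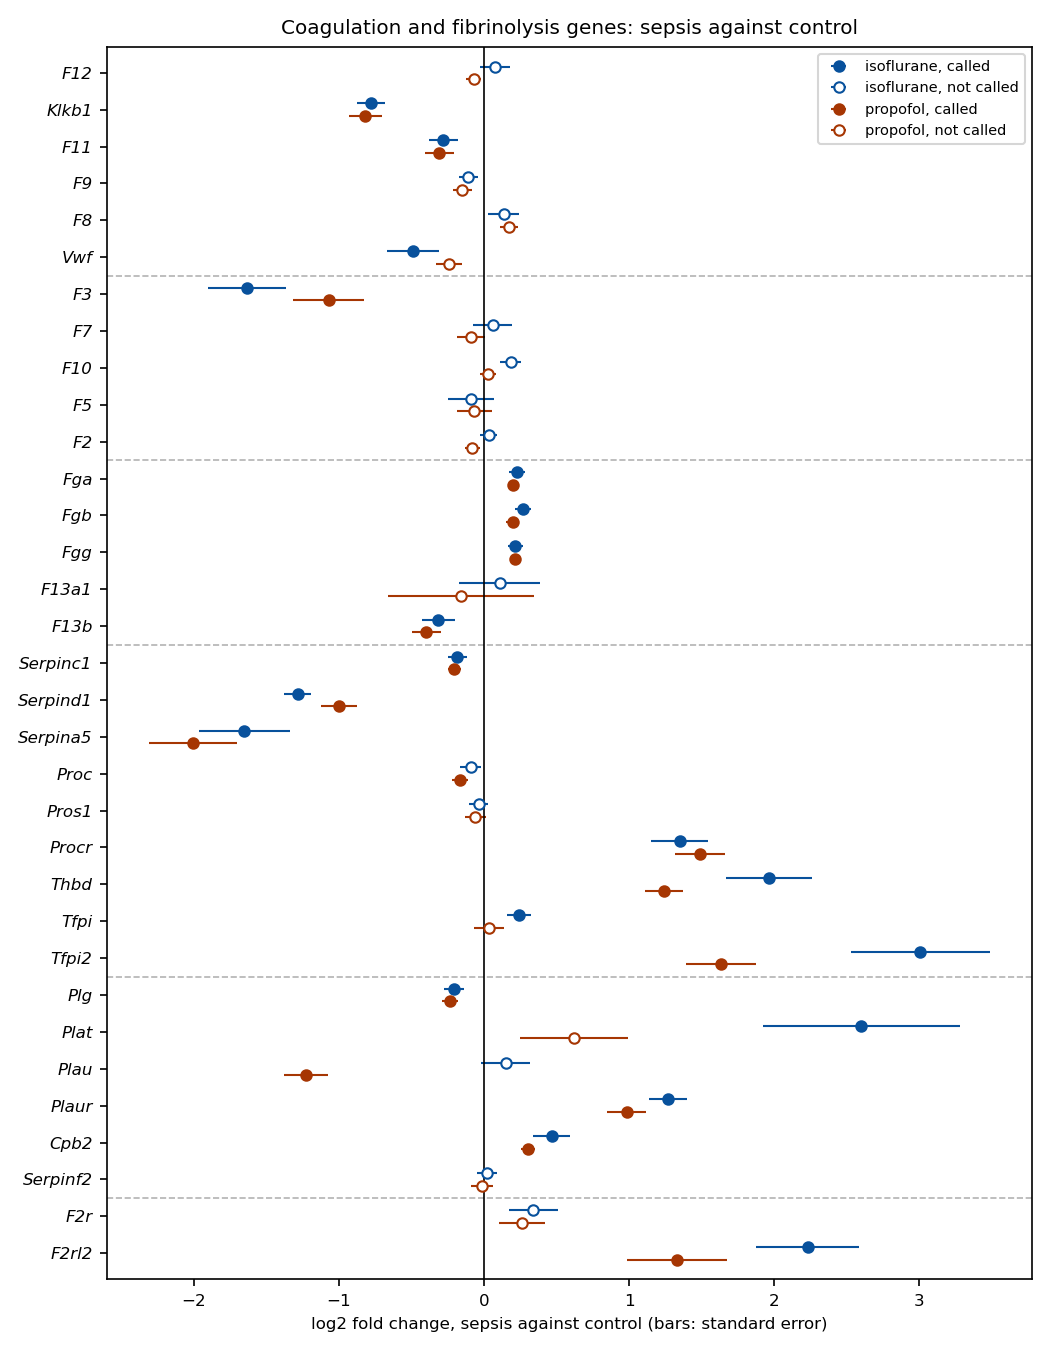
Log2 fold change of sepsis against control for the 33 tested members, in order of role from the contact factors at the top to the receptors at the bottom, under isoflurane (blue) and propofol (brown). Bars are standard errors, filled points passed an adjusted p of 0.05, and the largest rise is Tfpi2 under isoflurane (3.01) and the largest fall Serpina5 under propofol (-2.004).

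The 3 fibrinogen chains rose by a small amount in every pool. Fga, the Aα chain, was at 37574, 36632, 37458 and 37396 CPM in isoflurane control libraries 5 to 8 and at 43496, 42488, 42109 and 45869 CPM in Isoflurane-Sepsis libraries 1 to 4. Under propofol it was at 33453, 33163, 32610 and 33763 CPM in control libraries 13 to 16 and at 37772, 37285, 39226 and 39179 CPM in Propofol-Sepsis libraries 9 to 12. All sepsis pools lay above all control pools of their anesthetic. The log2 fold change of Fga was 0.23 ± 0.06 (SE) under isoflurane (edgeR adjusted p = 0.00901) and 0.20 ± 0.04 under propofol (adjusted p = 0.00251).

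Fgb, the Bβ chain, was at 31484, 30996, 32191 and 31333 CPM in the isoflurane controls and at 38271, 36960, 36055 and 40091 CPM after sepsis. Propofol controls held 30128, 29675, 29848 and 30880 CPM of it, and sepsis pools 33754, 33078, 36307 and 35693 CPM. Groups again did not overlap. Its log2 fold change was 0.27 ± 0.06 under isoflurane (edgeR adjusted p = 0.00472) and 0.20 ± 0.04 under propofol (adjusted p = 0.00537). Fgg, the γ chain, was at 27165, 26743, 26830 and 27069 CPM in the isoflurane controls and at 31713, 31016, 30534 and 31731 CPM after sepsis. The propofol controls had 24553, 24028, 23930 and 25284 CPM of it and the sepsis pools 28218, 27962, 28843 and 29044 CPM. It too separated the groups fully, with log2 fold changes of 0.22 ± 0.05 (edgeR adjusted p = 0.00832) and 0.22 ± 0.04 (adjusted p = 0.002). Under isoflurane the call of Fgg was lost when no limit on low counts was set (adjusted p = 0.0521). The fibrinogen chains took between 9.21% and 9.64% of all reads on genes in control livers and between 10.1% and 10.8% in septic livers.

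**Figure D2:**
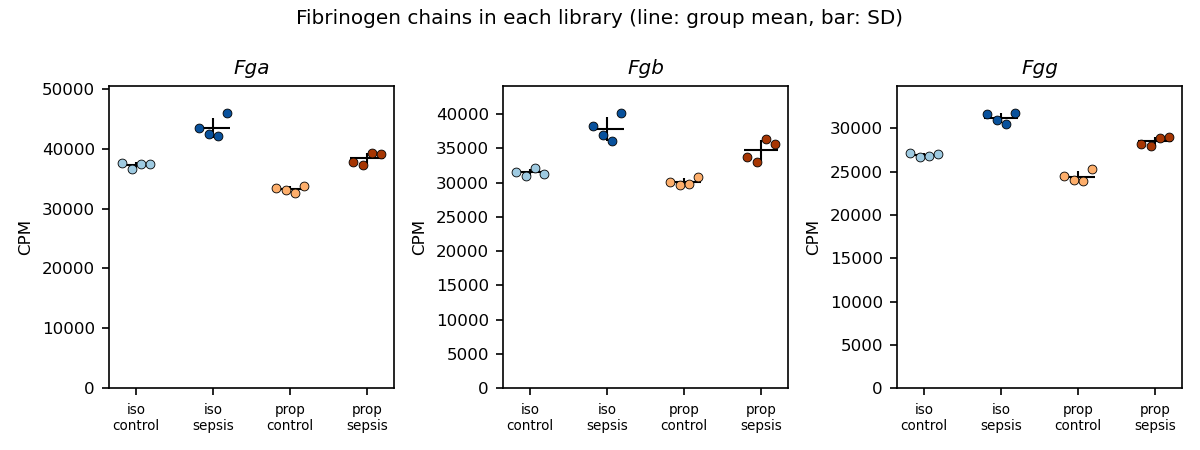
CPM of Fga, Fgb and Fgg in each of the 16 libraries, by group, on axes that start at 0, with the group mean (line) and SD (bar). In each panel the 4 sepsis libraries lie above the 4 control libraries of the same anesthetic, by a log2 fold change between 0.20 and 0.27.

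Of the other genes of fibrin formation, F13b, the carrier subunit of the fibrin-crosslinking factor XIII, went the other way. Its level was 170 ± 7.05 CPM in isoflurane control and 136 ± 22.9 CPM after sepsis, and 114 ± 11.4 and 86.9 ± 10.1 CPM under propofol. The log2 fold change was -0.31 (edgeR adjusted p = 0.0456) and -0.40 (adjusted p = 0.0114). F13a1, the catalytic subunit, which is made by macrophages and platelets more than by hepatocytes, had group means between 0.448 and 0.722 CPM and was not called under either anesthetic.

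Tissue factor, the cell surface trigger of coagulation encoded by F3, fell under both anesthetics. F3 was at 3.43, 3.42, 5.02 and 2.81 CPM in the isoflurane controls and at 1.70, 1.22, 0.933 and 0.786 CPM after sepsis, counted on 13 to 34 reads per sepsis library. Under propofol, control libraries had 4.57, 6.17, 4.71 and 5.71 CPM of F3, and sepsis libraries 2.15, 1.47, 3.42 and 3.04 CPM. No sepsis pool reached the lowest control of its anesthetic. The log2 fold change was -1.64 ± 0.27 under isoflurane (edgeR adjusted p = 0.00139), a 3.11-fold lower level, and -1.07 ± 0.25 under propofol (adjusted p = 0.00664). With library 10 left out, whose F3 level was the lowest of the septic propofol pools, the latter was -0.87 (adjusted p = 0.00383).

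The partners of tissue factor and the common pathway did not pass the test. F7, the protease that tissue factor binds, was at 77.7 ± 1.58 CPM in isoflurane control and 80.6 ± 15.7 CPM after sepsis, and at 78.0 ± 9.47 and 73.7 ± 6.25 CPM under propofol. For F2, which encodes prothrombin, the 95% intervals of the log2 fold change were -0.10 to 0.17 under isoflurane and -0.20 to 0.03 under propofol. F5, the cofactor of factor Xa, had the wider intervals of -0.44 to 0.26 and -0.34 to 0.20. F10, the protease of that complex, was at 496 ± 14.5 CPM in control and 561 ± 33.3 CPM after sepsis under isoflurane, without overlap, at an adjusted p of 0.0639 by edgeR. DESeq2 called it there (log2 fold change 0.19, adjusted p = 0.0189), and under propofol its log2 fold change was 0.03.

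In the contact and intrinsic branch, Klkb1 fell most. It encodes prekallikrein, the protease that activates factor XII and frees bradykinin. Its level was 267 ± 9.65 CPM in isoflurane control and 156 ± 19.2 CPM after sepsis, and 287 ± 33.7 and 163 ± 21.8 CPM under propofol, with no overlap in either. The log2 fold changes of -0.78 ± 0.10 (edgeR adjusted p = 0.000371) and -0.82 ± 0.11 (adjusted p = 0.000455) correspond to levels 1.71-fold and 1.76-fold lower. F11, the substrate of factor XIIa in the cascade, was lower by a smaller step, -0.28 (adjusted p = 0.0403) and -0.31 (adjusted p = 0.0299). Its libraries overlapped under isoflurane and were barely separate under propofol. There the highest sepsis library, library 10, was at 102.795 CPM and the lowest control, library 15, at 102.821 CPM. F12 itself was not called (0.07 and -0.07), nor was F9, which encodes factor IX (-0.11 and -0.15).

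F8, which encodes the cofactor of factor IX, was also not called, at log2 fold changes of 0.13 and 0.17. Vwf, the carrier of factor VIII that endothelial cells and platelets make, was at 13.8 ± 0.660 CPM in isoflurane control and 9.79 ± 2.93 CPM after sepsis (log2 fold change -0.49, edgeR adjusted p = 0.0482). Under propofol it was at 17.7 ± 2.12 and 15.1 ± 0.421 CPM (-0.24, adjusted p = 0.0564). Kng1, a kininogen, had 38 reads in all 16 libraries and was not tested. The reference table gives Kng1 as an older symbol of Kng2, and Kng2, added after its values were seen, was at 937 ± 19.4 CPM in isoflurane control and 906 ± 101 CPM after sepsis. It was not called under either anesthetic (log2 fold changes -0.05 and 0.06).

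Members that need vitamin K for their maturation (F2, F7, F9, F10, Proc and Pros1) gave 0 calls of 6 under isoflurane by edgeR, with 1 of them below an unadjusted p of 0.05, and 1 call of 6 under propofol, beside 50.0% and 42.1% of all genes. Other settings gave further calls. Under isoflurane, F10 was called by DESeq2, in 1 fit of all libraries (edgeR adjusted p = 0.0169) and without library 1 (0.0385). F9 was called lower there with library totals (0.0469). Under propofol, library totals added F2 (edgeR adjusted p = 0.0487) and F9 (0.0311), both lower, and F9 was also called without library 9 (0.047). The gene called under propofol in the main fit was Proc, which encodes protein C, the protease that inactivates factors Va and VIIIa. It was at 375 ± 15.7 CPM in propofol control and 335 ± 5.19 CPM after sepsis (log2 fold change -0.17, edgeR adjusted p = 0.0343, and 0.0638 without library 10). Pros1, its cofactor protein S, was not called, at -0.04 and -0.06.

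Of the anticoagulant genes, Thbd, Procr and Tfpi2 rose under both anesthetics, whereas the serpins Serpinc1, Serpind1 and Serpina5 fell under both. Thbd encodes thrombomodulin, which turns thrombin into an activator of protein C. It was at 13.3, 13.6, 11.7 and 13.5 CPM in the isoflurane controls and at 34.1, 38.1, 40.5 and 90.5 CPM after sepsis. Thbd under propofol was at 12.1, 13.4, 14.7 and 13.01 CPM in control, and after sepsis at 24.6, 29.3, 38.6 and 33.7 CPM. Each sepsis pool was above every control pool, and library 4 was far above the rest of its group. The log2 fold change was 1.96 ± 0.30 under isoflurane (edgeR adjusted p = 0.000915), 1.54 without library 4 (adjusted p = 2.49e-05), and 1.24 ± 0.13 under propofol (adjusted p = 0.000131).

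Procr encodes the endothelial protein C receptor, which presents protein C to thrombomodulin. Isoflurane controls had 12.9, 14.2, 11.4 and 10.5 CPM of it and the sepsis pools 33.2, 36.4, 34.8 and 19.5 CPM. Propofol controls had 9.53, 6.35, 8.62 and 7.54 CPM and the sepsis pools 18.5, 30.1, 22.2 and 19.5 CPM. Groups did not overlap, with log2 fold changes of 1.35 ± 0.20 (edgeR adjusted p = 0.00075) and 1.49 ± 0.17 (adjusted p = 0.000197). The difference between them was -0.15, with a 95% interval from -0.74 to 0.44.

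Tfpi2, a Kunitz-type inhibitor that acts on plasmin and kallikrein as well as on the factor VIIa complex, had the largest fold change of the 33 members tested for sepsis. It was at 0.470, 0.545, 0.186 and 0.646 CPM in the isoflurane controls and at 1.65, 3.48, 6.79 and 3.69 CPM after sepsis. In the propofol controls it was at 0.772, 0.582, 0.571 and 0.624 CPM, and after sepsis at 2.37, 2.20, 2.08 and 1.37 CPM. The controls rested on 4 to 31 reads per library, and no sepsis pool overlapped them. The log2 fold changes were 3.01 ± 0.48 (edgeR adjusted p = 0.00117), an 8.04-fold higher level, and 1.63 ± 0.24 (adjusted p = 0.000617), a 3.10-fold higher level. Tfpi, the main inhibitor of the tissue factor complex, was at 10.3 ± 0.539 CPM in isoflurane control and 12.1 ± 0.778 CPM after sepsis (0.24, adjusted p = 0.0389). Under propofol it was at 9.99 ± 0.836 and 10.3 ± 1.09 CPM (0.03, not called).

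Serpind1, which encodes the thrombin inhibitor heparin cofactor II, was lower without overlap under both anesthetics. It was at 527, 513, 559 and 566 CPM in the isoflurane controls and at 244, 229, 226 and 188 CPM after sepsis. Under propofol it was at 442, 495, 368 and 546 CPM in control, and after sepsis at 259, 212, 214 and 244 CPM. The log2 fold changes were -1.29 ± 0.09 (edgeR adjusted p = 3.97e-05), a 2.44-fold lower level, and -1.002 ± 0.12 (adjusted p = 0.000267). Serpina5 encodes the protein C inhibitor, a serpin that also acts on urokinase. Its levels in the isoflurane controls were 1.93, 1.63, 1.81 and 1.44 CPM, and after sepsis 0.549, 0.774, 0.622 and 0.181 CPM. Under propofol they were 1.03, 1.46, 1.19 and 1.68 CPM in control, and after sepsis 0.452, 0.440, 0.267 and 0.213 CPM. The sepsis libraries held only 3 to 12 reads each, yet none overlapped a control, and the log2 fold changes were -1.65 ± 0.31 (edgeR adjusted p = 0.00271) and -2.004 ± 0.30 (adjusted p = 0.000747).

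Serpinc1, which encodes antithrombin, the main inhibitor of thrombin and factor Xa, fell by much less. It was at 2603 ± 42.7 CPM in isoflurane control and 2289 ± 136 CPM after sepsis (log2 fold change -0.18, edgeR adjusted p = 0.0358), and at 2366 ± 49.5 and 2063 ± 40.3 CPM under propofol (-0.20, adjusted p = 0.00654). Serpina10, which encodes the protein Z-dependent inhibitor, had 0 reads among 348092488, which allows a level of up to 0.00862 CPM, for counting error only. The symbol was listed and counted at 0 in all 16 libraries. Whether reads of the gene could be assigned to it was not tested. Neither Serpina10 nor Proz could therefore be compared.

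**Figure D3:**
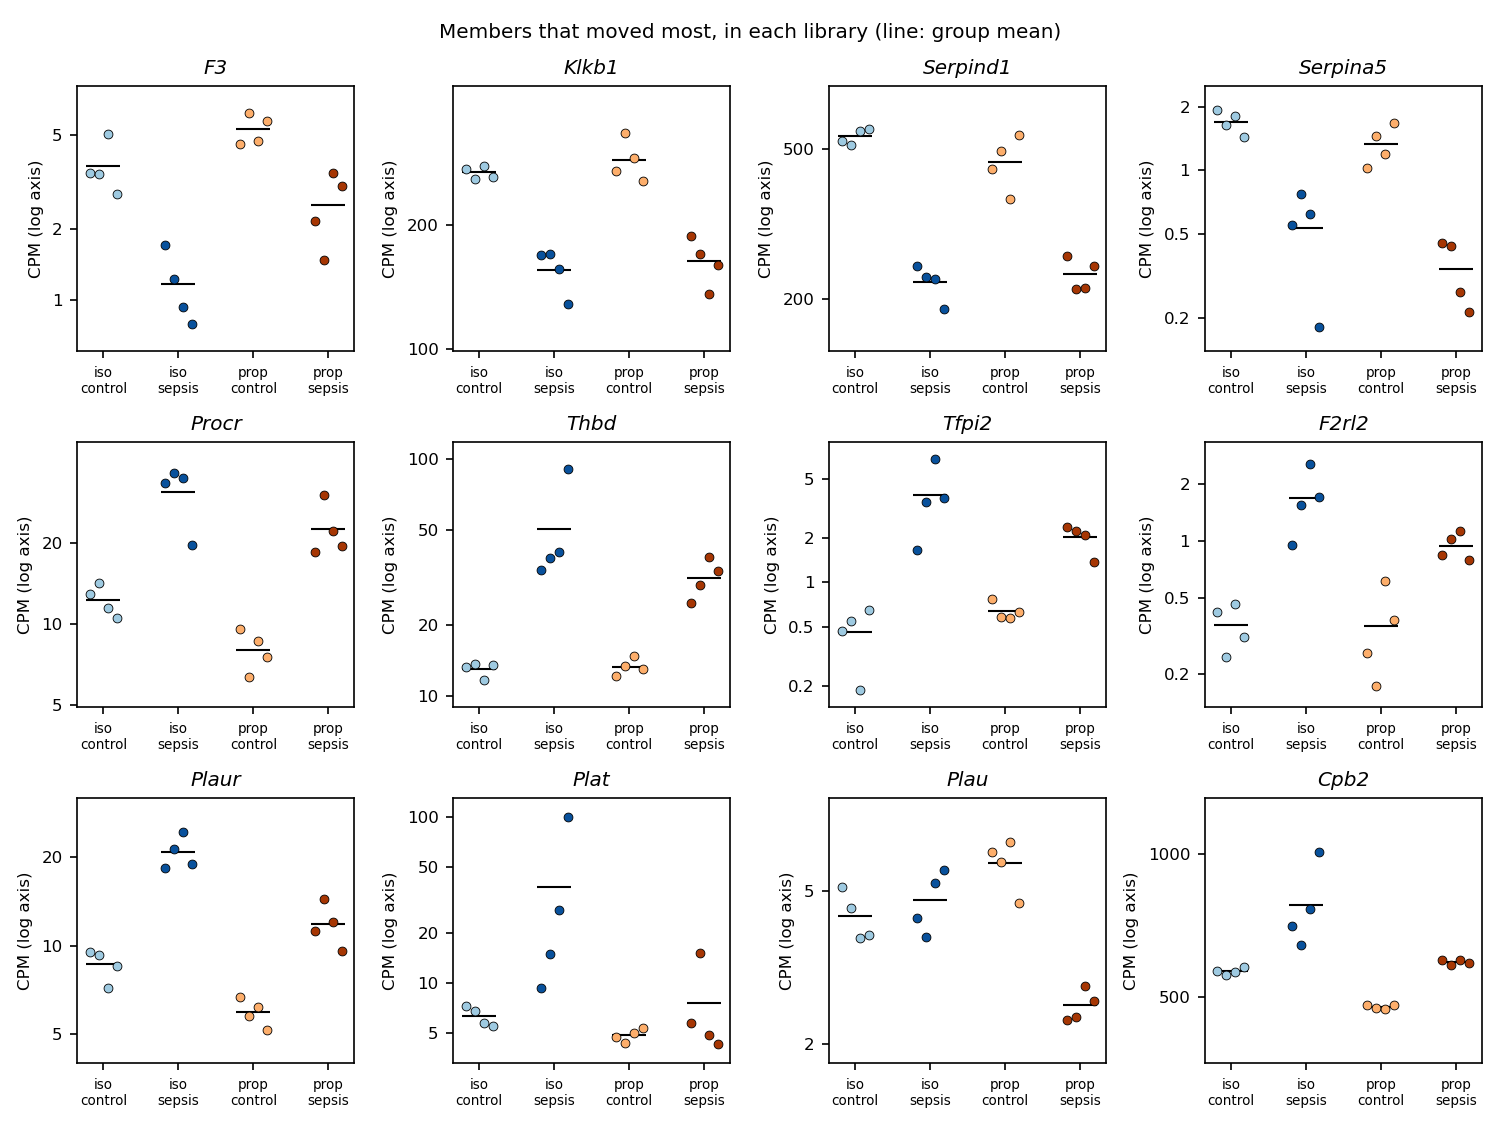
CPM of 12 members in each of the 16 libraries on log axes, with the group mean as a line. F3, Klkb1, Serpind1 and Serpina5 lie lower in every sepsis library than in every control library of the same anesthetic, Procr, Thbd, Tfpi2, F2rl2, Plaur and Cpb2 lie higher, and Plat and Plau differ between the anesthetics in which group stands apart.

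In the plasminogen system the receptor for urokinase rose and plasminogen itself fell slightly. Plaur, which encodes that receptor, was at 9.55, 9.31, 7.20 and 8.56 CPM in the isoflurane controls and at 18.3, 21.3, 24.5 and 19.0 CPM after sepsis. Plaur under propofol was at 6.69, 5.77, 6.19 and 5.18 CPM in control, and after sepsis at 11.2, 14.4, 12.03 and 9.64 CPM. The groups did not overlap, and the log2 fold changes were 1.27 ± 0.13 (edgeR adjusted p = 0.000169) and 0.98 ± 0.14 (adjusted p = 0.000456). Plg was at 2661 ± 64.1 CPM in isoflurane control and 2298 ± 159 CPM after sepsis, and at 2516 ± 128 and 2151 ± 47.0 CPM under propofol, with log2 fold changes of -0.21 (adjusted p = 0.033) and -0.23 (adjusted p = 0.0078).

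Plat encodes tissue plasminogen activator. It was at 7.24, 6.73, 5.76 and 5.48 CPM in the isoflurane controls and at 9.28, 15.0, 27.7 and 100 CPM after sepsis, so that the sepsis pools were all higher but far apart. Their log2 fold change was 2.60 ± 0.68 (edgeR adjusted p = 0.012), and without library 4 it was 1.48 (adjusted p = 0.00718). In the propofol controls Plat was at 4.70, 4.37, 5.00 and 5.33 CPM, and after sepsis at 5.76, 15.3, 4.86 and 4.26 CPM. The 1 high value is that of library 10, the library with the brain genes. With it the log2 fold change under propofol was 0.62 (adjusted p = 0.206), and without it 0.01 (adjusted p = 0.948). The part of the brain genes in that value was not tested.

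Plau, which encodes urokinase, was the member whose response differed between the anesthetics. It was at 5.13, 4.51, 3.76 and 3.83 CPM in the isoflurane controls and at 4.24, 3.80, 5.23 and 5.68 CPM after sepsis, in overlapping ranges. In the propofol controls it was at 6.31, 5.94, 6.72 and 4.66 CPM, and after sepsis at 2.32, 2.35, 2.83 and 2.59 CPM, below all controls. The log2 fold change was 0.15 ± 0.17 under isoflurane (edgeR adjusted p = 0.484) and -1.23 ± 0.15 under propofol (adjusted p = 0.000257). Their difference, isoflurane minus propofol, was 1.37 ± 0.22 (edgeR interaction, adjusted p = 0.0106). It was the single call among 33 members, where 2.72% of all 10621 genes tested were called (1.66% higher and 1.06% lower). Without library 1 the interactions of Tfpi2 (1.63, adjusted p = 0.0312) and Plat (2.31, adjusted p = 0.0495) were called as well.

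Inhibitors of fibrinolysis differed from each other. Cpb2, which encodes the carboxypeptidase TAFI that strips plasminogen binding sites from fibrin, rose from 566 ± 9.64 to 780 ± 160 CPM under isoflurane (log2 fold change 0.47, edgeR adjusted p = 0.0158) and from 476 ± 5.43 to 592 ± 7.00 CPM under propofol (0.31, adjusted p = 0.000966). The ranges did not overlap. Serpinf2, which encodes α2-antiplasmin, was not called, with 95% intervals of the log2 fold change from -0.14 to 0.17 under isoflurane and from -0.19 to 0.16 under propofol.

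Of the protease-activated receptors, F2rl2, which encodes PAR3, rose under both anesthetics. It was at 0.423, 0.248, 0.465 and 0.313 CPM in the isoflurane controls and at 0.948, 1.55, 2.54 and 1.69 CPM after sepsis. In the propofol controls it was at 0.257, 0.175, 0.619 and 0.384 CPM, and after sepsis at 0.847, 1.03, 1.12 and 0.791 CPM. Sepsis and control pools were separate although the controls rested on 3 to 15 reads per library, and the log2 fold changes were 2.23 ± 0.35 (edgeR adjusted p = 0.00116) and 1.33 ± 0.34 (adjusted p = 0.0121). F2r, the main thrombin receptor PAR1, had log2 fold changes of 0.34 and 0.26 and was not called. F2rl1, which encodes PAR2, was too low for the test, with 8 reads over the 4 isoflurane controls and 22 over the sepsis pools, a ratio per read of 4.09 (95% counting interval 1.76 to 10.6). Under propofol it had 1 and 22 reads, a ratio of 17.5 (2.83 to 722).

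Several calls of small size rested on all pools being present. Under isoflurane, F11, F13b, Vwf, Tfpi, Serpinc1 and Plg were no longer called without any 1 of control libraries 5 to 8. Among sepsis libraries the same held for F11 without 1, 2 or 4, for F13b without 1, 2 or 3, for Vwf without 2, 3 or 4, for Tfpi without 3 or 4, and for Serpinc1 without 2 or 3. The adjusted p of edgeR in those fits lay between 0.0508 and 0.108, both for Vwf. Vwf was also lost with RLE size factors and after thinning all libraries to the shallowest, and Tfpi with scaling by library totals and with no limit on low counts. Under propofol, F11 was lost without library 11, 12, 13, 14 or 16 and Proc without 9, 10, 11, 12, 14 or 16, at adjusted p from 0.0548 for F11 to 0.108 for Proc, and Proc also with no limit on low counts (0.0523). The calls of F3, Klkb1, Fga, Fgb, Fgg, Cpb2, Serpind1, Serpina5, Procr, Thbd, Tfpi2, Plaur and F2rl2 were kept without any 1 library under both anesthetics.

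RNA levels of markers of other cell types were compared in the same livers, and some but not all of the lists differed between sepsis and control. The summed level of 7 neutrophil and monocyte markers was 18.3 to 21.4 CPM in isoflurane control and 37.3 to 119 CPM after sepsis, and 19.4 to 26.9 and 37.4 to 55.1 CPM under propofol. That of 7 endothelial markers, with 1 of the 8 listed genes absent, was 250 to 307 CPM in isoflurane control and 191 to 232 CPM after sepsis, and 316 to 343 and 270 to 289 CPM under propofol. The single endothelial markers did not all move that way. Under isoflurane 4 of 7 were called lower and 0 higher by edgeR, but under propofol 2 were lower and 1 higher. Kdr, a receptor for vascular endothelial growth factor, was at 35.1 to 61.2 CPM in propofol control and 9.78 to 14.6 CPM after sepsis, whereas Pecam1, an adhesion molecule of endothelial junctions, was at 15.03 to 18.4 and 20.9 to 24.05 CPM. Thbd and Procr, which endothelial cells express, were higher under both anesthetics. Of 6 Kupffer cell markers, 4 were called higher and 1 lower under isoflurane and 2 higher and 1 lower under propofol, with sums that overlapped between sepsis and control under both. Of 7 markers of stellate cells and fibroblasts, 4 were higher and 1 lower under isoflurane, with a sum of 131 to 143 CPM in control and 147 to 204 CPM after sepsis, and 1 was higher and 2 lower under propofol, with overlapping sums. Lymphocyte markers were low, at a sum of 1.07 to 1.83 CPM in isoflurane control and 2.10 to 5.08 CPM after sepsis, and the 2 that could be tested were called higher there but not under propofol. Platelet markers were scarce, with a sum of 0.837 to 2.48 CPM in every library and Gp1bb and Gp5 at 0 in all. The part of these cell types in Plaur, Thbd, Procr, Vwf and F3 was not tested.

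Beyond the members, 21 further genes of the pathway were listed by function, of which 20 were counted and 19 tested. Under isoflurane 4 were higher and 5 lower, and under propofol 6 were higher and 6 lower, which is 9 and 12 of 19 beside 50.0% and 42.1% of all genes. By edgeR 0 of 19 interactions were called, with 3 below an unadjusted p of 0.05, where 2.72% of all genes were called. Serpinb2, which encodes an inhibitor of urokinase that is largely intracellular, had 1 read over the 4 isoflurane controls and 99 over the sepsis pools. The ratio was 147 (95% counting interval 25.8 to 5879). Under propofol it had 1 and 87 reads, a ratio of 69.2 (12.1 to 2765). Counting intervals, here and for F2rl1, leave out the spread between pools. In edgeR Serpinb2 was called under both anesthetics, at log2 fold changes of 6.60 and 5.63. These became 7.74 without control library 8 and 7.30 without control library 15, which held the single control reads.

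Cell surface docking sites of plasminogen moved apart. Anxa2, which encodes annexin A2, was at 6.56 ± 0.984 CPM in isoflurane control and 18.9 ± 8.66 CPM after sepsis (log2 fold change 1.53, edgeR adjusted p = 0.00621), and at 6.76 ± 0.729 and 10.1 ± 1.73 CPM under propofol (0.57, adjusted p = 0.00816, and 0.114 in 1 fit of all libraries). Its partner S100a10 was not called (0.84 and 0.39). Plgrkt, a transmembrane plasminogen receptor, fell by 1.69 and 1.29 on the log2 scale (adjusted p = 0.00269 and 0.00202). It had only 21, 26, 11 and 8 reads in Isoflurane-Sepsis libraries 1 to 4, and its log2 fold change was -2.09 without library 2. Hrg, the histidine-rich plasma protein that binds heparin and plasminogen, had log2 fold changes of -0.81 and -0.55 (adjusted p = 0.000108 and 0.000895), and Habp2, which encodes a protease that can activate factor VII and urokinase, of -0.41 and -0.40 (adjusted p = 0.00155 in both).

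Of the vitamin K cycle, Vkorc1, the epoxide reductase that warfarin blocks, was lower, at -0.40 (edgeR adjusted p = 0.0145) and -0.45 (adjusted p = 0.00805), whereas Ggcx, the carboxylase it serves, was not called (-0.09 and 0.11). Gas6, a vitamin K-dependent ligand of TAM receptors, was at 148 ± 14.5 CPM in isoflurane control and 77.6 ± 21.5 CPM after sepsis (-0.93, adjusted p = 0.0049), and at 176 ± 38.1 and 81.1 ± 15.9 CPM under propofol (-1.12, adjusted p = 0.000872). Serping1, the inhibitor of the contact proteases and of complement C1, rose by 0.32 (adjusted p = 0.00449) and 0.21 (adjusted p = 0.014). Called under propofol but not under isoflurane, with no called interaction, were Furin (-0.53), which cuts propeptides from the clotting factors, A2m (0.95), a broad protease inhibitor, and Lman1 (0.19), which carries factors V and VIII from the endoplasmic reticulum. Lman1 was lost with 1 fit of all libraries, with library totals, with no limit on low counts, and without library 9, 11, 12, 13, 15 or 16, at adjusted p between 0.0532 and 0.31.

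**Figure D4:**
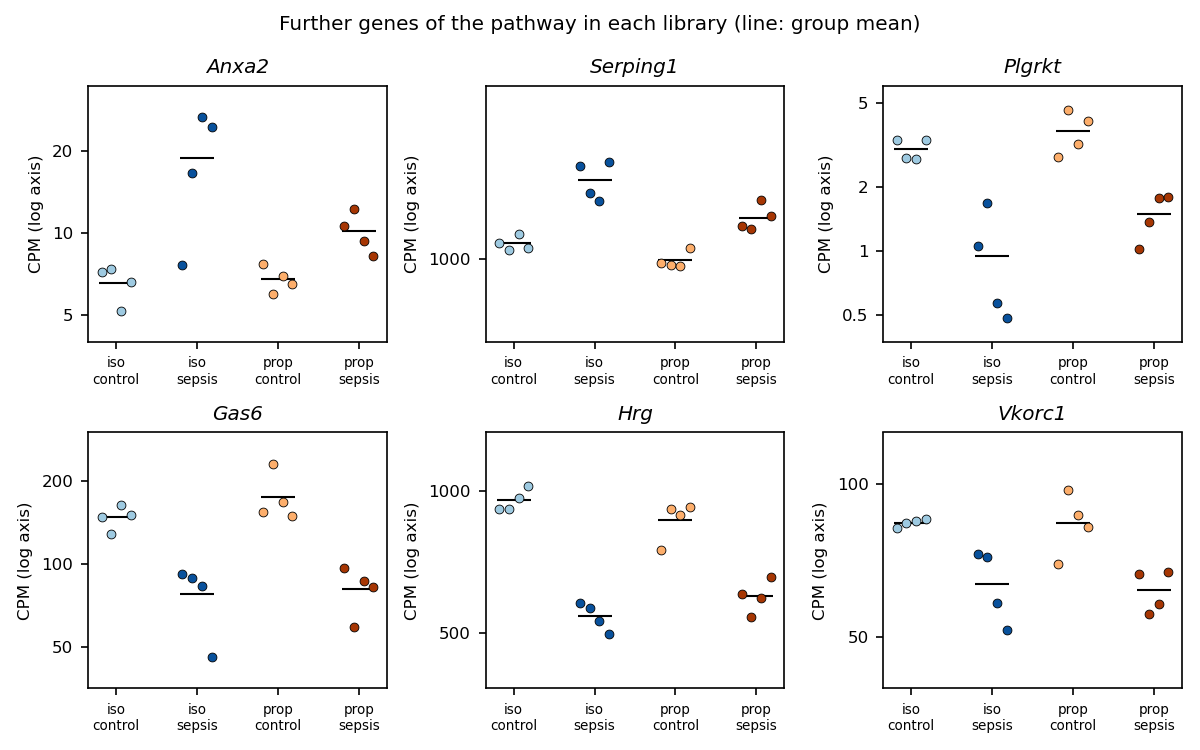
CPM of 6 pathway genes outside the 37 in each of the 16 libraries on log axes, with the group mean as a line. Anxa2 and Serping1 are higher, and Plgrkt, Gas6, Hrg and Vkorc1 are lower in every sepsis library than in every control library of the same anesthetic.

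The anesthetics were also compared with each other. These comparisons use the same libraries as those of sepsis with control, and the anesthetic cannot be told apart from the induction drugs or from the different prefix of the deposited tables for each anesthetic, whose meaning is not stated. In control livers 14 of 32 tested members were higher under isoflurane and 3 lower, 17 of 32, where 43.3% of 10314 genes were called (21.6% higher and 21.7% lower). The libraries did not overlap for 16 members (40.3% of all genes). TMM factors were 0.920 to 0.979 in isoflurane libraries and 1.02 to 1.09 in propofol libraries. With library totals alone, the median over all genes moved to -0.15, and 5 members were higher and 5 lower. The median of the members was 0.14 against -0.00 over all genes.

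The largest called steps in control livers were those of F5, Procr and F13b, which were higher under isoflurane by 0.62, 0.61 and 0.58 on the log2 scale (edgeR adjusted p = 7.34e-05, 0.00424 and 0.000142). Plaur (0.54, adjusted p = 0.0031), F9 (0.37), Plat (0.36), F10 (0.27), F8 (0.26), Cpb2 (0.25), F12 (0.19), Fga (0.16), Fgg (0.14), Serpinc1 (0.14) and Pros1 (0.14) were also called higher. With library totals Serpinc1, Fgg and Pros1 turned to -0.007, -0.004 and -0.006. F3 (-0.56), Plau (-0.47) and Vwf (-0.37) were called lower under isoflurane. Without 1 library the calls were lost for Plat (5, 6, 13 or 14), for Pros1 (any of the 8 but 14), for Plau (7, 8, 13 or 15) and for F3 (5, 6, 8, 14 or 16), at edgeR adjusted p from 0.0502 for Plau to 0.115 for Pros1. Plau, Plat, F3 and Pros1 were also lost after thinning, and Serpinc1, Cpb2, Plat, F12, F3, Vwf and Pros1 in 1 fit of all libraries. Library totals further ended the calls of Cpb2, Plat, F10, F12, F8 and Fga, with Fga at 0.02 (edgeR adjusted p = 0.653).

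In septic livers 5 of 32 members were higher under isoflurane and 2 lower, where 19.3% of 10272 genes were called (10.6% higher and 8.66% lower). Libraries did not overlap for 12 members (25.6% of all genes), and the median of the members was 0.20 against -0.01. Called higher were Plau (0.91, edgeR adjusted p = 0.0156), Plaur (0.81, 0.0129), F13b (0.64, 0.0183), F10 (0.41, 0.0139) and F9 (0.40, 0.0169), and called lower were F3 (-1.12, 0.0466) and Vwf (-0.63, 0.0482). The calls of F3 and Vwf were both lost without library 2, 3, 4, 9, 11 or 12 and with no limit on low counts. That of F3 was also lost with limma-voom and with a mean of at least 1 CPM, and that of Vwf after thinning, and the adjusted p in these fits lay between 0.0509 and 0.127. Plau was lower under isoflurane in control livers and higher in septic ones. The number of calls was 12 without library 1, 1 without library 9 or 12, and 2 without library 11. F10 and F13b were lost without library 9, 11 or 12, and F9 without 11 or 12. Plau was lost without library 9 or 12 and Plaur without 9. For these 5 genes the edgeR adjusted p then lay between 0.0505 for Plaur and 0.0684 for F13b. Plat, at 2.34 (adjusted p = 0.0585), was called without library 10 (2.94, adjusted p = 0.0388). Without it F5 was called as well (0.69, adjusted p = 0.0393, beside 0.58 and 0.0557 with it) and Vwf was not (-0.61, adjusted p = 0.0709), so that 7 members were higher and 1 lower.

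**Figure D5:**
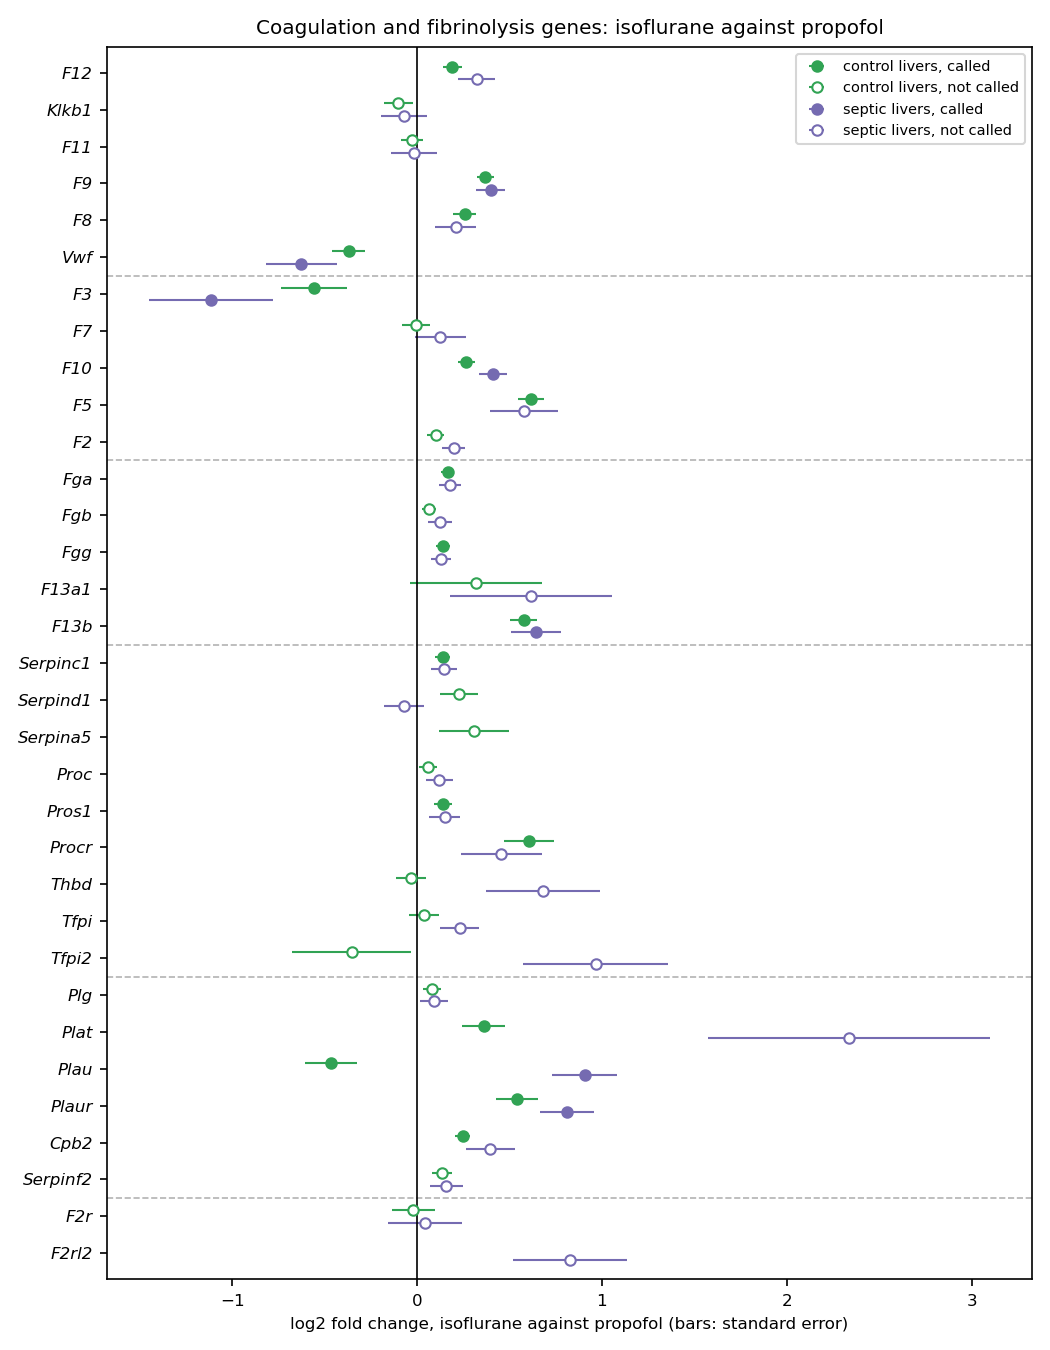
Log2 fold change of isoflurane against propofol for the members tested in control livers (green) or septic livers (violet), in order of role. Bars are standard errors and filled points passed an adjusted p of 0.05. Plau changes side between control (-0.47) and sepsis (0.91), whereas F9, F10, F13b and Plaur are called higher, and F3 and Vwf lower, in both. The septic calls of F3 and Vwf were lost without library 2, 3, 4, 9, 11 or 12. Those of F10 and F13b were lost without 9, 11 or 12, F9 without 11 or 12, Plau without 9 or 12, and Plaur without 9. In control, the call of F3 was lost without 5, 6, 8, 14 or 16, and that of Plau without 7, 8, 13 or 15.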

How the data were processed

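For every library the authors deposited counts, whole numbers of reads per gene symbol with no normalization. The submitters' processing notes name STAR and the build rn5, and the counting program is not given in the sources used here. Libraries were directional, from polyadenylated RNA. Reads outside genes (21.6% to 25.4% of a library) and ambiguous reads (1.07% to 1.35%) were left out. Each comparison of 4 libraries with 4 was a separate quasi-likelihood fit in edgeR 4.0.16 (R 4.3.3) with TMM scaling, filterByExpr (minimum count 10, minimum total 15) and Benjamini-Hochberg adjustment over all genes tested. The interaction used all 16 libraries. SE is the log2 fold change divided by the root of F, and 95% intervals use the t distribution of the fit. Alternatives were RLE factors, library totals, DESeq2 1.42.0 (the tool of the study), limma-voom 3.58.1, other limits on low counts, thinning, 1 fit of all libraries, a threshold of 0.01, and each library left out. Members, lists and alternatives were chosen with earlier results of these data known. Values in every library are given for members called with a log2 fold change of at least 1 in size in a sepsis comparison, for called interactions, and for the fibrinogen chains and F3. The brain list, Kng2, and the fits of all members without library 10 were added after the data were seen. Promoter windows were found for 28 members and were not found for F8, Vwf, F3, Serpind1, Serpina10, Thbd, Plat, Cpb2 and F2rl1. Their build, GRCr8, is not that of the counts. Pairs of libraries of a group differed by more than sampling noise, with chi-square per degree of freedom of at least 3.35. One of the further pathway genes is not reported here by name and remains in the counts.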

Additional observations from a re-analysis of the deposited data

Results flagged for a closer look

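In 8 sets of 4 libraries, 1 library lay far from the other 3 of its group. Of 132 such sets looked at this is 6.06%, and chance alone gives about 1 in 20. In Isoflurane-Sepsis library 3, F11 was at 107 CPM, where the other libraries of the group lay between 84.2 and 86.2 CPM. F13a1 in the same library was at 0.415 CPM, below 0.786 to 0.848 CPM in the others, on 8 reads. In isoflurane control library 8 F13a1 was at 0.5001 CPM, where the others had 0.743 to 0.753 CPM. Serpinc1 reached 2439 CPM in propofol control library 16, above 2335 to 2346 CPM. Thbd was at 90.5 CPM in Isoflurane-Sepsis library 4, above 34.1 to 40.5 CPM, and at 11.7 CPM in isoflurane control library 7, below 13.3 to 13.6 CPM. Tfpi in propofol control library 14 was at 11.2 CPM, above 9.46 to 9.66 CPM. Plat in Propofol-Sepsis library 10, which also holds the high sum of brain genes, was at 15.3 CPM, above 4.26 to 5.76 CPM. The response of Plau to sepsis differed between the anesthetics, with an interaction of 1.37 on the log2 scale in the edgeR fit of all 16 libraries.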

How the results depend on the processing

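No paired analysis was possible because the sample numbers run from 1 to 16 and no number is shared between groups. Of 1446 refits of single members that had been called, 1277 kept direction and call, 166 lost the call and 3 reversed. The 3 reversals came with library totals alone in control livers, where Serpinc1, Fgg and Pros1 went to -0.00671, -0.00415 and -0.00557 between the anesthetics. At an adjusted p below 0.01 the number of members called was 12 for sepsis under isoflurane, 0 for the interaction, 10 for the anesthetics in control and 0 for the anesthetics in sepsis. In control the anesthetics gave 10 with library totals and 10 with 1 fit of all 16 libraries. In sepsis they gave 14 with DESeq2 and 20 with 1 fit of all libraries, beside 7 as reported. The cause of these moves was not tested, other than that a stricter threshold calls fewer. Leaving out each library gave 14 to 20 calls for sepsis under isoflurane, 17 to 19 under propofol, 1 to 3 for the interaction (3 without library 1), 14 to 17 for the anesthetics in control and 1 to 12 in sepsis (12 without library 1, 1 without 9 or 12, 2 without 11). F2rl1, untested as reported, was called with no limit on low counts (log2 fold changes 1.96 and 3.66). Low counts limit Serpina5, F2rl2, Tfpi2 and F13a1, with single libraries of 3 or 4 reads.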
